A study of Homo sapiens with 4 samples.

Results

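The TNF receptor family of plasma cells comprises 10 genes here: 8 receptors (TNFRSF17, TNFRSF13B, TNFRSF1A, TNFRSF1B, TNFRSF9, CD40, CD27 and LTBR) and 2 ligands (LTA and LTB). They were picked by name, and each probe whose current symbol or older alias is one of these names was used, which gave 31 of the 15246 probes and 9 of the 4604 named genes on the array. TNFRSF13B (TACI) had no probe under its name and was not analysed here. Of the 9 genes with probes, 8 had a value on at least 3 arrays. LTA had values on days 3 and 4 alone.

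The cells were EJM, an established human line of multiple myeloma, the malignancy of antibody-secreting plasma cells, labelled as of bone marrow origin. Both sides of every comparison carried an IκBα super-repressor, a form of the NF-κB inhibitor IκBα that resists signal-induced breakdown, whose expression is held off by a tetracycline repressor. The induced cells received doxycycline at 20 µg/ml at 37 °C for 1, 2, 3 or 4 days, and the uninduced cells did not. Each of the 4 two-colour arrays set induced cells of one day (Cy5) against uninduced cells (Cy3). The sources used here do not say whether the line was a single clone or a pool, and list no culture given doxycycline without the super-repressor.

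Receptors of this family bind trimeric ligands and recruit TRAF proteins or death-domain adaptors, through which most of them switch on the classical or the alternative NF-κB pathway. In plasma cells BCMA and TACI receive the survival factors APRIL and BAFF, CD40 and CD27 are receptors shared with the B cell lineage, and the lymphotoxin ligands signal through the lymphotoxin β receptor. Several genes of the family, LTA, LTB, CD40 and TNFRSF9 among them, are also known NF-κB targets, so they can lie both upstream and downstream of the factor that the super-repressor holds back.

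The promoter sequences of 3 members are shown because these members differ in whether the stretch just before the start of transcription holds the letters that NF-κB recognises. Each is the 250 bases before the start, from RefSeq on GRCh38.p14, read 5′ to 3′ on the strand of the gene. Capitals mark a match to the 10-base κB consensus on either strand. The TNFRSF1B stretch (chr1:12166741-12166990, plus strand) has no match, the TNFRSF9 stretch (chr1:7940840-7941089, minus strand) has overlapping matches on the 2 strands, and the LTB stretch (chr6:31582426-31582675, minus strand) has 1 match.
TNFRSF1B: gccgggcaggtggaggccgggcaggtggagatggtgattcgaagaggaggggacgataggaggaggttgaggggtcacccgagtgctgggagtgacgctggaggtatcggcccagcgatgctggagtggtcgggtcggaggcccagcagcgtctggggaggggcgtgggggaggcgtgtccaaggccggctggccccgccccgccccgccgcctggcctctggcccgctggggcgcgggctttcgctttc
TNFRSF9: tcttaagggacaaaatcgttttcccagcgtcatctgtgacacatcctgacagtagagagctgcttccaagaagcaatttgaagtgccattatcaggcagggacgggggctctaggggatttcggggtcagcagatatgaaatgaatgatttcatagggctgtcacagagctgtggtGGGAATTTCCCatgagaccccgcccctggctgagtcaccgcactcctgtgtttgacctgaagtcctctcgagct
LTB: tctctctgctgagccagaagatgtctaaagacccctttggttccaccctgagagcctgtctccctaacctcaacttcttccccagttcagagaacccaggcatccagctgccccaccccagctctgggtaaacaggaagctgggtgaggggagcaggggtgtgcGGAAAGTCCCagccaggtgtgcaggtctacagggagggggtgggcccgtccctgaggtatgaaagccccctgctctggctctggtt
In TNFRSF9 the marked letters begin 74 bases before the start, and in LTB 86 bases before it. A match was present in 9.96% of the 35116 single promoter stretches of the same length in the table. Counted by gene, 3 of the 8 members that the table holds (TNFRSF9, LTB and LTA) had a match in at least 1 listed promoter. The 8 members have 10 listed promoters, with more than 1 each for LTA and LTB. The count by gene can therefore not be set against the 9.96%. LTA also has a listed promoter without a match. These 8 members include TNFRSF13B and LTA, whose expression was not tested. A match is a run of letters and not a measured binding site. TNFRSF17 and CD40 have no entry in the table.

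All values below are log2 ratios of induced over uninduced cells on 1 array per day, so they describe a change between the 2 dyes and not a level of expression. The mean over the 4 arrays is given with its SD over the arrays. It was tested against 0 with limma over all 7713 features with at least 3 values, and p-values were adjusted over all of them by Benjamini-Hochberg. A feature is a named gene, averaged over its probes, or a single probe with no gene symbol or several. The base of the logarithm is taken as 2 and the direction is taken from the dyes. Both are unstated in the deposited values. The natural logarithm would change each fold, and the opposite direction would turn each sign. Each array is a different day, so the 4 values of a gene do not repeat 1 condition. Whether separate cultures were grown is unknown, and the p-values then cover only the array-to-array spread. In such a bulk measurement, fewer cells making a transcript and less transcript per cell cannot be told apart.

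Values were present for 67.7% to 91.0% of all probes per array, and for 18, 15, 25 and 26 of the 31 member probes on days 1 to 4. The days 1 and 2 arrays were thus the emptier ones for the family, and their log ratios were also more widely spread (SD 0.517 and 0.569 over probes) than on days 3 and 4 (0.345 and 0.38). Pearson's r between arrays over probes ran from 0.0204 (days 1 and 4) to 0.566 (days 3 and 4). TNFAIP3, the A20 deubiquitinase and a classical NF-κB target, was lower at -1.47 ± 0.28 (limma adjusted p = 0.0178), whereas NFKBIA, the gene of IκBα, had a mean of -0.14 ± 0.07 (adjusted p = 0.61), and it is unknown whether its probes also detect the transgene. Each of the 8 plasma cell markers looked for (SDC1, CD38, PRDM1, XBP1, IRF4, JCHAIN, MZB1 and SSR4) had values on all 4 arrays, but ratios carry no level that could place the line among cell types.

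No member of the family passed the threshold. In induced cells TNFRSF1B (TNF receptor 2) lay lowest, at -0.54 ± 0.11, and TNFRSF17 (BCMA) highest, at 0.50 ± 0.30. The other 6 tested members had means between -0.21 and 0.067. Of the 8 members 4 had a mean below 0 and 4 above, against 56% of all features below and 44% above, and the median of their means was 0.0013 against -0.032 over all features. With limma 0 of 8 members had an adjusted p under 0.05, where 0.337% of all features had. An unadjusted p under 0.05 was reached by 2 of 8 members, TNFRSF1B on the lower and TNFRSF17 on the higher side, against 12.5% of all features (6% lower and 6.47% higher). The same 2 were the only members of the 8 with the same sign on all 4 arrays, which held for 25.1% of features with 4 values.

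**Figure D1:**
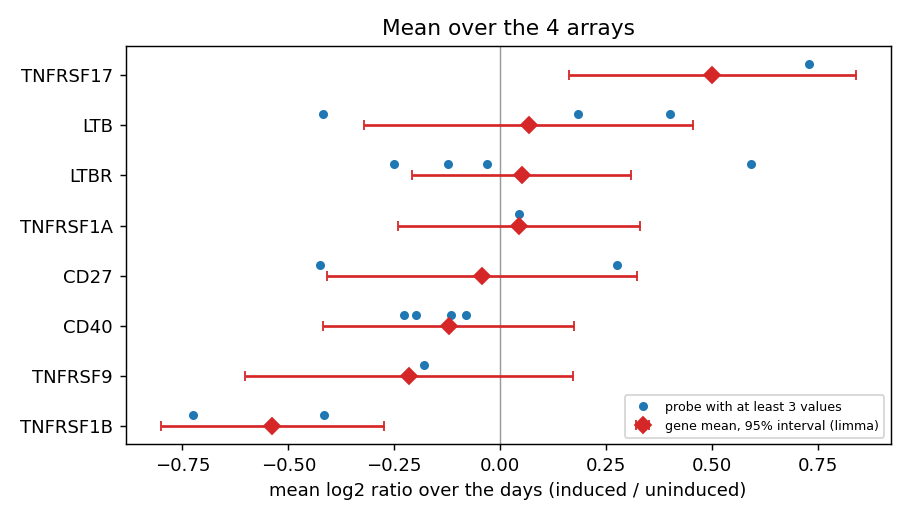
The horizontal axis is the mean log2 ratio (induced over uninduced) over the 4 arrays for the 8 members tested; red diamonds are gene means with limma's 95% intervals, and blue points are the means of single probes with at least 3 values. The intervals of TNFRSF1B and TNFRSF17 lie on opposite sides of 0, the other 6 include 0, and the probes of LTB, LTBR and CD27 lie on both sides of 0.

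The receptors for TNF itself gave different pictures. TNFRSF1B encodes the TRAF-binding TNF receptor 2, which lacks a death domain and is found mainly on blood and endothelial cells. Its log2 ratio was -0.47, -0.48, -0.69 and -0.51 on days 1 to 4. All 4 daily averages were low and close together, and their SD of 0.11 was the second smallest of the 8 members. Each of the 2 probes behind the averages had a larger SD (0.25 and 0.23). The mean of -0.54 corresponds to 1.45-fold less in induced cells, with a 95% interval of 1.21 to 1.74-fold (limma adjusted p = 0.141, unadjusted p = 0.00184). In rank by unadjusted p it was number 100 of 7713 features. On each array it lay below most named genes, with 13.7%, 14.9%, 0.656% and 3.06% of them lower on days 1 to 4.

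The 2 probes of TNFRSF1B did not read alike on every day. Probe 26893_1 gave -0.47, -0.47, -0.66 and -0.06 on days 1 to 4, and probe 16252_1, without a value on day 1, gave -0.49, -0.73 and -0.95 on days 2 to 4. They matched within 0.1 on days 2 and 3 and stood apart on day 4, where the average of -0.51 lay between -0.06 and -0.95. Tested as probes, their means were -0.42 ± 0.25 and -0.72 ± 0.23 (limma adjusted p = 0.274 and 0.158 over 11669 probes). The gene passed when limma weighted arrays by their scatter around the gene means (-0.60, limma adjusted p = 0.0181, where 3.77% of features passed). It also passed with days 3 and 4 alone (-0.60, limma adjusted p = 0.0269, where 6.58% passed). The weights were 0.41, 0.45, 3.02 and 1.8 on days 1 to 4, so both passing alternatives rest mainly on days 3 and 4. The gene did not pass in the other 11 alternatives. Its 95% interval lay below 0 in all 13.

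TNFRSF1A encodes the death-domain TNF receptor 1, present on most cell types. Its single probe, 27283_1, gave 0.31 on day 1 and -0.076, -0.031 and -0.021 on days 2 to 4. Day 1 stood above the other 3 days, which lay near 0. The mean was 0.045 ± 0.18 (95% interval -0.24 to 0.33; limma adjusted p = 0.891), and without the day 1 array it was -0.043. TNF, the ligand of both receptors, had a mean of -0.14 ± 0.13 (adjusted p = 0.64 in limma) and ran from -0.31 on day 2 to -0.001 on day 4.

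TNFRSF17 encodes BCMA, the receptor for APRIL and BAFF that sustains long-lived plasma cells and is a surface target of myeloma therapy. Its log2 ratio was 0.58, 0.89, 0.27 and 0.27 on days 1 to 4. All 4 values lay above 0, with days 1 and 2 above days 3 and 4. The mean of 0.50 corresponds to 1.42-fold more in induced cells, with a 95% interval of 1.12 to 1.79-fold (limma adjusted p = 0.251, unadjusted p = 0.00992). It lay above 93.3%, 97.6%, 84.9% and 84.6% of named genes on days 1 to 4.

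The gene average of TNFRSF17 mixes 2 probes that differ. Probe 27698_1 had a value every day, at 1.10, 0.89, 0.27 and 0.65, and a mean of 0.73 ± 0.36 (limma adjusted p = 0.144 over probes). Probe 17197_1 had values on days 1 and 4 alone, at 0.053 and -0.12, near 0 on both. The averages of days 1 and 4 are therefore lower than those of the first probe. With only probes that had all 4 values the mean was 0.73.

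Plasma cell markers lay on the same side of 0 as TNFRSF17: 7 of the 8 had means above 0, against 44% of all features. The median of the 8 means was 0.48. None passed in limma, and 4 were higher at an unadjusted p under 0.05, against 6.47% of all features. The median of the markers was 0.54, 0.70, 0.29 and 0.030 on days 1 to 4. In SDC1, PRDM1 and XBP1 both early days lay above both late days, as in TNFRSF17, and in the other 5 markers they did not. CD38 was lowest on day 1 (0.56) and highest on day 3 (0.76), and SSR4 was highest on day 4 (0.67). JCHAIN, the immunoglobulin joining chain, had a mean of 1.00 ± 0.50, the ectoenzyme CD38 0.69 ± 0.09 and the proteoglycan syndecan-1 (SDC1) 0.59 ± 0.44. Their part in the TNFRSF17 values was not tested. The ligands of BCMA did not pass, with TNFSF13 (APRIL) at -0.007 ± 0.29 and TNFSF13B (BAFF) at -0.12 ± 0.42 (limma adjusted p = 0.988 and 0.791).

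**Figure D2:**
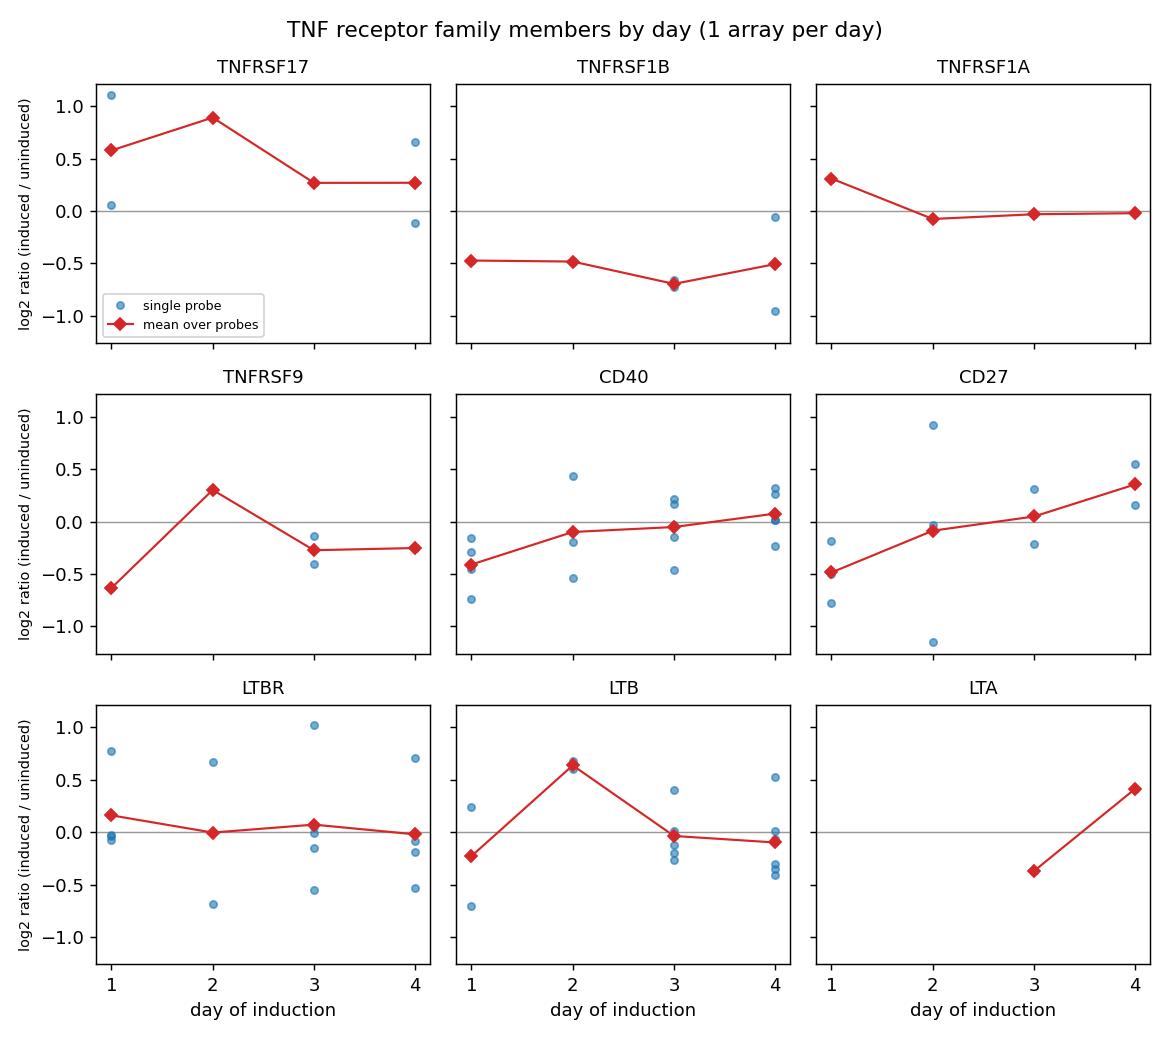
Each panel shows 1 member, with the day of induction on the horizontal axis and the log2 ratio of induced over uninduced cells on the vertical axis; blue points are single probes and red diamonds joined by a line are the mean over the probes with a value that day (1 array per day). TNFRSF17 stays above 0 and TNFRSF1B below 0 on all 4 days, CD27 goes from -0.49 to 0.35, and the probes of LTBR and LTB spread widely around 0.

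CD40 is the costimulatory receptor through which T helper cells activate B cells. It had 5 probes, and its average was -0.41, -0.10, -0.052 and 0.076 on days 1 to 4. In this average day 1 was the low one and the later days lay near 0. Single probes ran from -0.54 to 0.44 on day 2 and from -0.46 to 0.21 on day 3. Probe 24458_1, with values on days 3 and 4 alone, gave 0.17 and 0.27. The mean was -0.12 ± 0.21 (95% interval -0.42 to 0.17; limma adjusted p = 0.702). All 4 of its probes with at least 3 values had means below 0, between -0.23 and -0.08, and with days 3 and 4 alone the gene's mean was 0.012.

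CD27 is the receptor for CD70 and marks memory B cells and plasma cells. Its average over 4 probes was -0.49, -0.088, 0.048 and 0.35 on days 1 to 4, higher on each later day. The mean was -0.043 ± 0.35 (95% interval -0.41 to 0.32; limma adjusted p = 0.926), and it was 0.10 without the day 1 array. The slope over the days was 0.27 ± 0.08 log2 per day (SE). Alone among the 8 members it had an unadjusted p under 0.05 on the slope, as 15% of all 6427 features had, and it did not pass (limma adjusted p = 0.309).

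The CD27 average rests on changing probes. Probe 17487_1, the only one with 4 values, gave -0.50, -1.15, -0.21 and 0.16, lowest on day 2. Probe 28003_1 gave -0.031, 0.31 and 0.55 on days 2 to 4. Both were highest on day 4. Probe 24777_1 had -0.18 and 0.92 on days 1 and 2, and probe 19336_1 -0.77 on day 1 alone, so the day 2 average of -0.088 stands between probe values of -1.15 and 0.92. With only probes that had all 4 values the slope was 0.29 (limma adjusted p = 0.396).

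CD70, the ligand of CD27, had the largest mean of the ligands in the family, on 1 probe. It gave 0.15, 1.47, 0.31 and 0.73 on days 1 to 4, above 0 on each day with day 2 far above the rest. Its mean was 0.67 ± 0.59, with an unadjusted p of 0.0185, and it did not pass (limma adjusted p = 0.303).

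TNFRSF9 encodes 4-1BB (CD137), a costimulatory receptor best known from activated T cells. Its log2 ratio was -0.63, 0.30, -0.27 and -0.25 on days 1 to 4. Day 2 stood above 0 and the other 3 days below. The mean was -0.21 ± 0.39 (95% interval -0.60 to 0.17; limma adjusted p = 0.609). It was -0.39 without the day 2 array and -0.075 without the day 1 array. Probe 36565_1 supplied days 1 and 2 by itself, and probe 38161_1 gave -0.41 and -0.26 on days 3 and 4. The promoter shown above with overlapping matches on both strands is that of TNFRSF9, and no member was called, with or without a match. TNFSF9, its ligand, had a mean of 0.068 ± 0.37.

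The lymphotoxin genes form the remaining group. LTA, TNF and LTB are neighbours on chromosome 6 in RefSeq, and CD27 and LTBR are neighbours on chromosome 12, where TNFRSF1A lies 1 coding gene further. LTB encodes lymphotoxin β, the membrane anchor of the heterotrimer that LTBR binds. Its average was -0.23, 0.64, -0.037 and -0.10 on days 1 to 4. Day 2 was the only day above 0, and that day rested on 2 probes (0.67 and 0.60). The mean was 0.067 ± 0.39 (95% interval -0.32 to 0.46; limma adjusted p = 0.879), and without the day 2 array it was -0.12.

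The probes of LTB disagreed in sign. Of 3 with at least 3 values, 17212_1 had a mean of -0.42 ± 0.26, 24894_1 of 0.40 ± 0.35 and 34353_1 of 0.18 ± 0.31. The first was below 0 on all 3 of its days and the second above 0 on all 3 of its days. None of them passed (limma adjusted p = 0.351, 0.404 and 0.616 over probes). LTA, the soluble lymphotoxin α, had -0.37 on day 3 and 0.41 on day 4, of opposite sign, from probe 35085_1 alone, and its other probe had no value.

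LTBR, the lymphotoxin β receptor that activates the alternative NF-κB pathway, averaged 0.16, -0.005, 0.071 and -0.022 on days 1 to 4, close to 0 throughout. Its mean of 0.051 ± 0.08 (limma adjusted p = 0.863) had the smallest SD of the 8 members. That average hides probes of opposite sign. Probe 28426_1 gave -0.029, 0.67, 1.02 and 0.70, with a mean of 0.59 ± 0.44, whereas probe 16261_1 gave 0.77, -0.68, -0.56 and -0.53, with a mean of -0.25 ± 0.68. They lay on opposite sides of 0 on every day. Probes 15867_1 and 16249_1 stayed within 0.2 of 0, with means of -0.03 and -0.12. With the single probe of fewest missing values in place of the average, the mean of LTBR was -0.25.

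Over the family, 18 probes had at least 3 values, 12 with means below 0 and 6 above. The share of all probes below 0 was not counted, and over all features it was 56%. With limma none passed over probes (0.471% of all probes did), and 5 had an unadjusted p under 0.05 (13.6% of all probes did): both of TNFRSF1B, 27698_1 of TNFRSF17, 28426_1 of LTBR and 17212_1 of LTB. Of the 5 members with at least 2 such probes, 3 had probes on both sides of 0. The share over all genes with several probes was not counted.

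In order of their means the members ran TNFRSF17, LTB, LTBR, TNFRSF1A, CD27, CD40, TNFRSF9 and TNFRSF1B. The 95% interval of each member overlapped that of its neighbours in this order, and differences between members were not tested. The intervals of TNFRSF17 (0.16 to 0.84) and TNFRSF1B (-0.80 to -0.28) did not overlap. Those intervals are unadjusted, and both genes were picked here as the extremes of the order. The intervals reached from 0.26 to 0.39 log2 on either side of the mean. A change smaller than that could not be told from 0 with these arrays, even without adjustment. The means of TNFRSF17 and TNFRSF1B were larger than that and still did not pass after adjustment.

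Over the days none of the 8 members passed on the slope with limma, as 0% of all 6427 features did. The slopes other than that of CD27 lay between -0.15 (TNFRSF17) and 0.15 (CD40) log2 per day, and the median slope of the members was -0.030 against 0.019 over all features. The median of the 8 members on days 1 to 4 was -0.32, -0.041, -0.034 and -0.022, where the median of all named genes was -0.053, -0.078, 0.0062 and -0.005. On each day 3 of the 8 lay above 0.

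**Figure D3:**
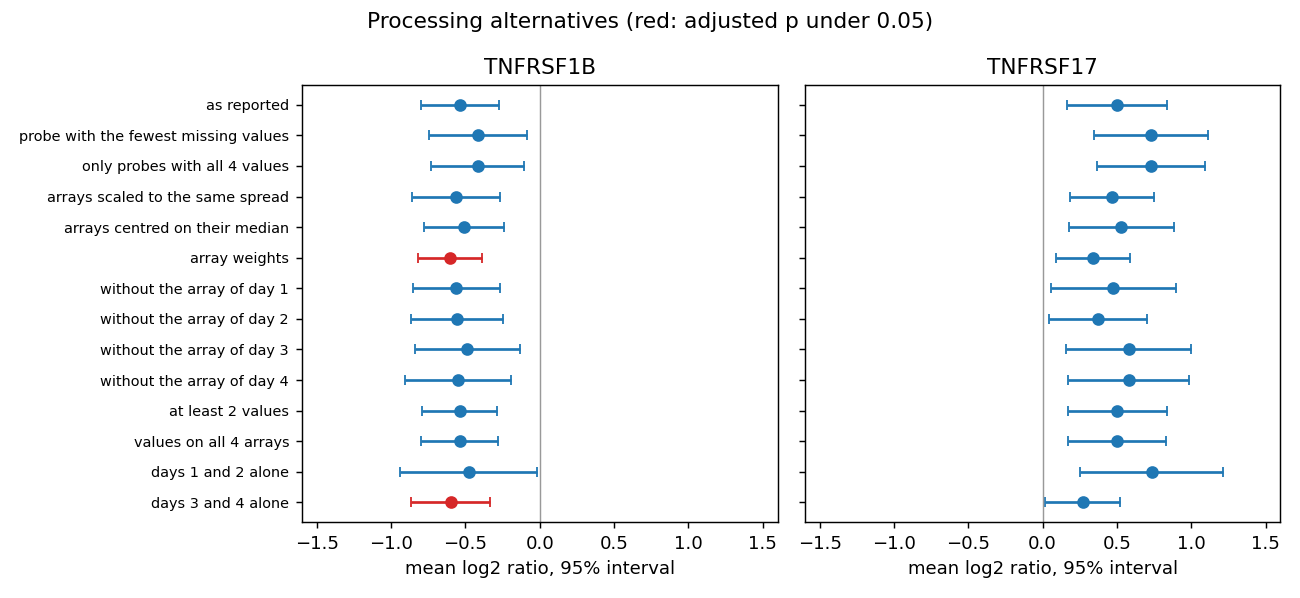
The mean log2 ratio with its 95% interval from limma (horizontal axis) is shown for TNFRSF1B and TNFRSF17 as reported and under each processing alternative (vertical axis), in red where the adjusted p is under 0.05. TNFRSF1B passes with array weights and with days 3 and 4 alone, and TNFRSF17 passes in no row; every point of TNFRSF1B lies below 0 and every point of TNFRSF17 above it.

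The genes whose 4 daily values came nearest to these members, by root mean square difference among 3768 other named genes with all 4 values, are given as a description. For TNFRSF1B they were ARIH2, a ubiquitin ligase (0.0084 log2), THOP1, a peptidase (0.046), and USF1, a transcription factor (0.078). For TNFRSF17 they were the receptor kinase FGFR3 (0.077), the Golgi mannosidase MAN2A1 (0.12) and the chemokine receptor CCR1 (0.12). With 4 points per gene, such likeness is loose. The values compared were averages, and the probes behind those of TNFRSF1B and TNFRSF17 differed on some days.

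Other genes of the pathway came from lists of further TNF-family ligands, further receptors, and adaptors. Over all features 0.337% passed in limma, and 6% were lower and 6.47% higher at an unadjusted p under 0.05. Of 16 ligands 10 were measured on at least 3 arrays and 0 passed (1 higher and 0 lower at an unadjusted p under 0.05, in limma). The median of the ligand means was -0.07, with 7 of 10 below 0, against a median of -0.032 and 56% below 0 over all features. Besides CD70, the largest means were those of TNFSF4 (OX40 ligand), at -0.26 ± 0.28, and TNFSF11 (RANK ligand, which drives osteoclasts), at -0.26 ± 0.20.

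Of 21 further receptors 12 were measured and 0 passed (3 lower and 0 higher at an unadjusted p under 0.05, in limma). The median of their means was -0.11, with 10 of 12 below 0, against -0.032 and 56% over all features. The death receptor FAS, an NF-κB target, gave -0.59, -0.68, -0.80 and -1.17 on days 1 to 4, below 0 on each array and for all 4 of its probes. Its mean was -0.81 ± 0.26 (limma adjusted p = 0.0846). TNFRSF11A (RANK) had a mean of -0.40 ± 0.07 on 3 arrays, and TNFRSF18 (GITR) of -0.35 ± 0.73, which rests on -1.45 on day 1.

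Of 26 adaptors and proximal signalling genes 15 were measured and 0 passed (2 lower and 0 higher at an unadjusted p under 0.05, in limma). The median of their means was -0.14, with 12 of 15 below 0, against -0.032 and 56% over all features. TRAF5, which binds CD40, CD27 and LTBR, had a mean of 0.47 ± 1.01 that rests on 1.98 on day 2. TRAF6, used by CD40, had 0.33 ± 0.40, with 1 probe mean above 0 and 2 below. TRAF3IP2 (the IL-17 receptor adaptor ACT1) had -0.28 ± 0.09. The markers of other cell types did not pass either. The B cell markers had a median of -0.073 (5 genes measured), the T cell markers of 0.099 (6 genes) and the myeloid markers of 0.018 (5 genes).

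**Figure D4:**
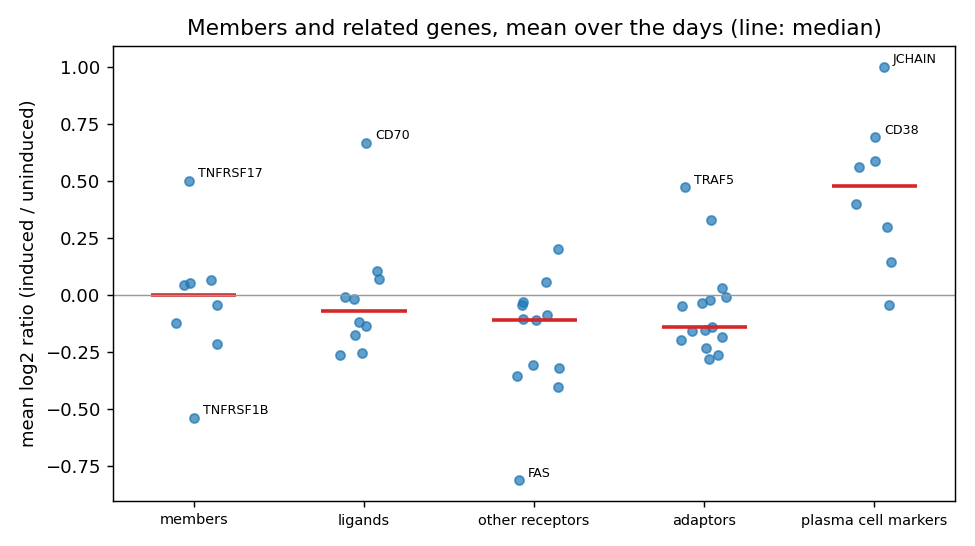
The vertical axis is the mean log2 ratio (induced over uninduced) over the arrays for each gene with at least 3 values, in columns for the members, further ligands, further receptors, adaptors and plasma cell markers; points are genes and red lines are medians. TNFRSF17 and CD70 lie at 0.50 and 0.67, TNFRSF1B and FAS at -0.54 and -0.81, and the medians run from -0.14 for adaptors to 0.48 for plasma cell markers.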

How the data were processed

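The authors deposited 1 table of log ratios of the 2 channels for 4 two-colour arrays, used here as log2 of Cy5 (induced) over Cy3 (uninduced), with 50 µg of total RNA labelled per dye and no dye swap, per the labels' protocols. The sources used here do not give the background correction, normalization, spot filter or log base, nor why a value is missing. Array medians lay between -0.068 and 0.004.

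Of 15246 probes 10169 had a single gene symbol, 4 several and 5073 none. Of the 10169 probes, 10128 were matched through Entrez identifiers to a RefSeq symbol (GRCh38.p14, used for names, neighbours and promoters). Probes of a gene were averaged per array, which gave the 4604 named genes. The probes with no symbol or several stayed features of their own, for 9681 features in all. Shares over all features therefore mix averaged genes with single probes, while members with several probes are averages. The mean over arrays against 0 and the slope on day were fitted on the whole table with limma 3.58.1 in R 4.3.3 (lmFit, eBayes, two-sided, Benjamini-Hochberg, threshold 0.05) and tested on simulated data. All members with at least 3 values are described. In each further list, called genes or otherwise the 3 largest means are named. TNF, TNFSF9, TNFSF13 and TNFSF13B, ligands of members, were added after their values were seen. The members, lists and rules were chosen with earlier results of these data known. Because the control is described alike on all arrays and may be 1 preparation, a ratio against 0 leaves out its own spread, and any dye bias or doxycycline effect remains in the mean. The number of arrays limits the precision.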

Additional observations from a re-analysis of the deposited data

Results flagged for a closer look

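Among 19 sets of 4 daily values (8 genes and 11 probes), 4 had 1 day whose gap to the nearest other day as a share of the range exceeded Dixon's 95% critical value. Chance flags about 1 in 20 such sets, and the arrays are different days. TNFRSF1A stood apart on day 1, at 0.309 against -0.076 to -0.021 on the other days, and its only probe, 27283_1, is the same set of values. TNFRSF1B stood apart on day 3, at -0.694 against -0.506 to -0.472, as an average of its probes. Its only probe with 4 values, 26893_1, was not flagged, and 16252_1 had no value on day 1. On day 4 these probes gave -0.058 and -0.953. Probe 16261_1 of LTBR stood apart on day 1, at 0.77 against -0.681 to -0.533.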

How the results depend on the processing

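For the mean, 13 alternatives were run per member, and for the slope 9. Of the 176 resulting values 155 kept direction and side of the threshold, 19 changed sign and 2 newly passed; no member was called at the outset. The number of members called on the mean was 1 (TNFRSF1B) with array weights and with days 3 and 4 alone, and 0 in the other alternatives. TNFRSF17 kept its sign in all 13, between 0.27 and 0.73, with adjusted p from 0.109 to 0.456. TNFRSF1B kept its sign, between -0.60 and -0.42, with adjusted p from 0.0181 to 0.441.

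Over all features, 26 were called on the mean (14 lower, 12 higher). The number was 3 with arrays scaled to the same spread (3 lower, 0 higher), 291 with array weights, 42 with values on all 4 arrays required, 1 with days 1 and 2 alone, 569 with days 3 and 4 alone, and 3 to 5 leaving out an array. Of probes, 55 were called, 34 with scaled arrays, 458 with array weights, 102 with values on all 4 arrays, and 3 to 11 leaving out an array. Slopes called numbered 0 throughout (limma).

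Means that changed sign were those of TNFRSF1A (-0.0070 with array weights, -0.026 with days 3 and 4 alone, -0.043 to 0.086 leaving out an array), CD40 (0.012 with days 3 and 4 alone), CD27 (0.0026 with scaled arrays, 0.096 with array weights, 0.20 with days 3 and 4 alone, -0.17 to 0.10 leaving out an array), LTBR (-0.25 with the probe of fewest missing values) and LTB (-0.018 with array weights, -0.068 with days 3 and 4 alone, -0.12 to 0.17 leaving out an array). Slopes that changed sign were those of TNFRSF1B (0.11 with the probe of fewest missing values and with only probes of 4 values), LTB (0.024 with array weights, -0.37 to 0.096 leaving out an array), TNFRSF1A (-0.17 to 0.028) and TNFRSF9 (-0.28 to 0.18), the last 2 leaving out an array. The cause was not tested. Each array already pairs induced with uninduced cells, and the mean against 0 tests that within-array ratio. No further pairing between arrays was possible, because each holds 1 day and they form a single group. No spot intensities were used here, so signal over background could not be weighed.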
